A study of Mus musculus with 6 samples.

Results

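The Hes and Hey genes encode basic helix-loop-helix-Orange transcriptional repressors. The 8 members described here are Hes1, Hes3, Hes5, Hes6, Hes7, Hey1, Hey2 and Heyl, taken as all probes whose RefSeq accession in the scanner files maps to one of these symbols. Each gene had 1 probe, so the family stood for 8 of the 20274 genes named on the array. Total RNA was measured in cultures of mouse epiblast stem cells (EpiSCs) of strain 129/Sv, cells that resemble the epiblast after implantation and can be turned to other fates. Of the 6 cultures, 2 were kept under the epiblastic maintenance condition (EpiSC), 2 had spent 1 day (NPC1) and 2 had spent 2 days (NPC2) in a neural plate developmental condition. The cultures of a pair are called A and B and came from the same seed culture, so p-values speak of the spread among these cultures alone, and that spread may be technical. Cy3-labelled RNA of a culture went on 1 array, and a single slide carried all 6. The members' probes were A_55_P2046245 (Hes1), A_55_P1963580 (Hes3), A_52_P622850 (Hes5), A_51_P429366 (Hes6), A_55_P2014531 (Hes7), A_51_P258409 (Hey1), A_51_P307082 (Hey2) and A_52_P337259 (Heyl).

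HES and HEY proteins bind E box, N box and class C sites in DNA as dimers and recruit Groucho/TLE corepressors. When a Notch receptor is cleaved, its intracellular domain joins RBPJ and Mastermind proteins on DNA, and Hes1, Hes5, Hey1, Hey2 and Heyl are classic targets of that complex. In the mouse neural tube Hes1, Hes3 and Hes5 keep progenitors undifferentiated by repressing proneural genes, and Hes6 counters Hes1. Hes7 is the oscillating repressor of the segmentation clock in presomitic mesoderm, whereas Hey1, Hey2 and Heyl are best known from the heart and blood vessels.

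RefSeq promoter windows of assembly GRCm38.p6, from 250 bases before to 50 bases after an annotated start, were at hand for 4 members (Hes5, Hes6, Hes7 and Hey2), with 2 starts for Hes6. The assembly is of strain C57BL/6J, not of the 129/Sv strain of these cells. The 3 windows that hold the RBPJ core TGGGAA are shown, because they set the strongly induced Hes5 beside Hes7, which changed little, and Hey2, which had no signal well above background. They run 5′ to 3′ along the gene's strand, and capitals mark TGGGAA or its complement TTCCCA.
Hes5 promoter, chr4:154960673-154960972, plus strand: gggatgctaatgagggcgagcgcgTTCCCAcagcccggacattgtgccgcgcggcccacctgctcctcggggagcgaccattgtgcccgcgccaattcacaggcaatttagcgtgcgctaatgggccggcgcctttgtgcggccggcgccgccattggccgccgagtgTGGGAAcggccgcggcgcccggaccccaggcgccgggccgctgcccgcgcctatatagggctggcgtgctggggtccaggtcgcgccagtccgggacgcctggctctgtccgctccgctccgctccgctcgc
Hes7 promoter, chr11:69120203-69120502, plus strand: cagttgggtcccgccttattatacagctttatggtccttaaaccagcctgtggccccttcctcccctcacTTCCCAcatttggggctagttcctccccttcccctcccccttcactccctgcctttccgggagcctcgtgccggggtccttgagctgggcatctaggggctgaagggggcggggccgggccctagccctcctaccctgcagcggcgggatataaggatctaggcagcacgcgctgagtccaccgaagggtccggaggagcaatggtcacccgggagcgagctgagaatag
Hey2 promoter, chr10:30842734-30843033, minus strand: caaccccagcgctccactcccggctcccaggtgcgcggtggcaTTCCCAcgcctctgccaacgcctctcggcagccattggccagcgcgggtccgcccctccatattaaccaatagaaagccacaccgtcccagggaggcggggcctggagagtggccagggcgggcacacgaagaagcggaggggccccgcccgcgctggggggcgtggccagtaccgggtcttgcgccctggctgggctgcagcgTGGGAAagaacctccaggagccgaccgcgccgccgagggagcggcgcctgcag

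Hes5 and Hey2 each held 2 matches of the RBPJ core, and Hes7 held 1. In Hes5 they began at -226 (minus strand) and -82 (plus strand) from the start, in Hey2 at -207 (minus strand) and -3 (plus strand), and in Hes7 at -180 (minus strand). Neither Hes6 window (chr1:91413173-91413472 and chr1:91413989-91414288, minus strand) held TGGGAA. Over the 32851 promoter windows of this length in the table, 25.6% held the letters TGGGAA on either strand at least once and 3.79% held them at least 2 times. The E box CANNTG, found in each of the 5 windows, was in 72.3% of all windows. The N box CACNAG was in 1 Hes6 window and in Hes7 (42.5% of all windows), and the class C site CACGNG in the other Hes6 window and in Hes7 (27.5% of all windows). The patterns can overlap: in Hes7 the match at -116 fits both CACNAG and CACGNG. A match is a stretch of letters, and binding was not measured.

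**Figure D1:**
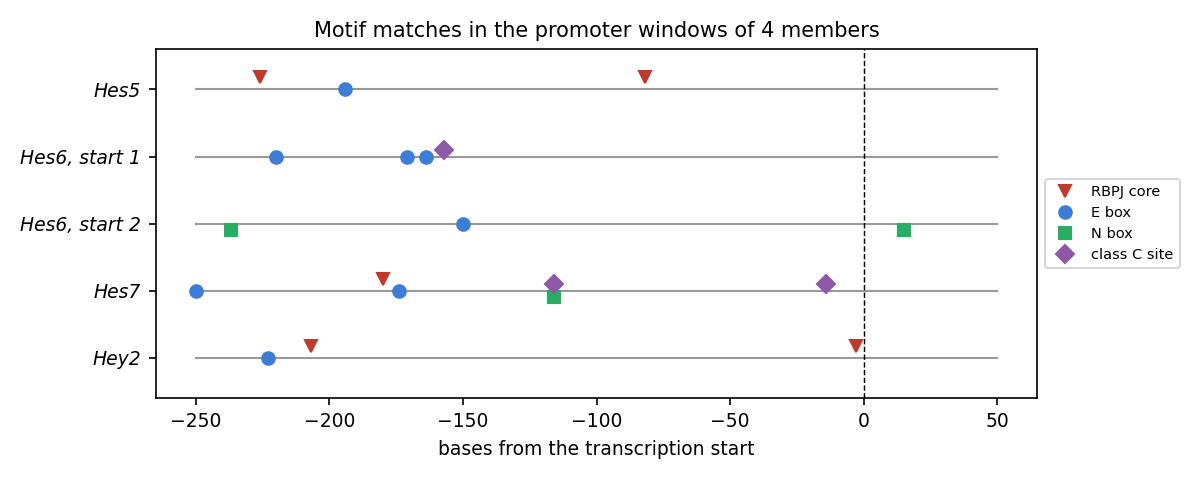
Positions of the 4 motifs in the 5 promoter windows, given on the horizontal axis as bases from the annotated start (dashed line), with 1 grey line per window and the marker shape naming the motif. Matches of the RBPJ core lie in the Hes5, Hes7 and Hey2 windows, and neither Hes6 window has one.

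Over 2 days in the neural plate condition the members moved in different directions. By day 2 Hes3 was at least 274-fold and Hes5 11.5-fold higher than in EpiSC, and Hey1 was 1.48-fold higher. Hes1 fell on the first day and rose on the second, and Hes6 was 1.83-fold lower by day 2. Hes7 was 1.20-fold lower, but in the value table that the authors deposited its log2 change was -0.04 and did not pass. Hey2 and Heyl gave no signal well above background on any array. The levels below are the processed signal, the scanner software's background-subtracted intensity, which is linear and was not scaled between arrays. A probe's signal depends on its sequence, so levels are compared between arrays for the same probe and never between genes. The lowest signal that the software marked as well above background was 8.12 to 9.57, depending on the array.

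**Figure D2:**
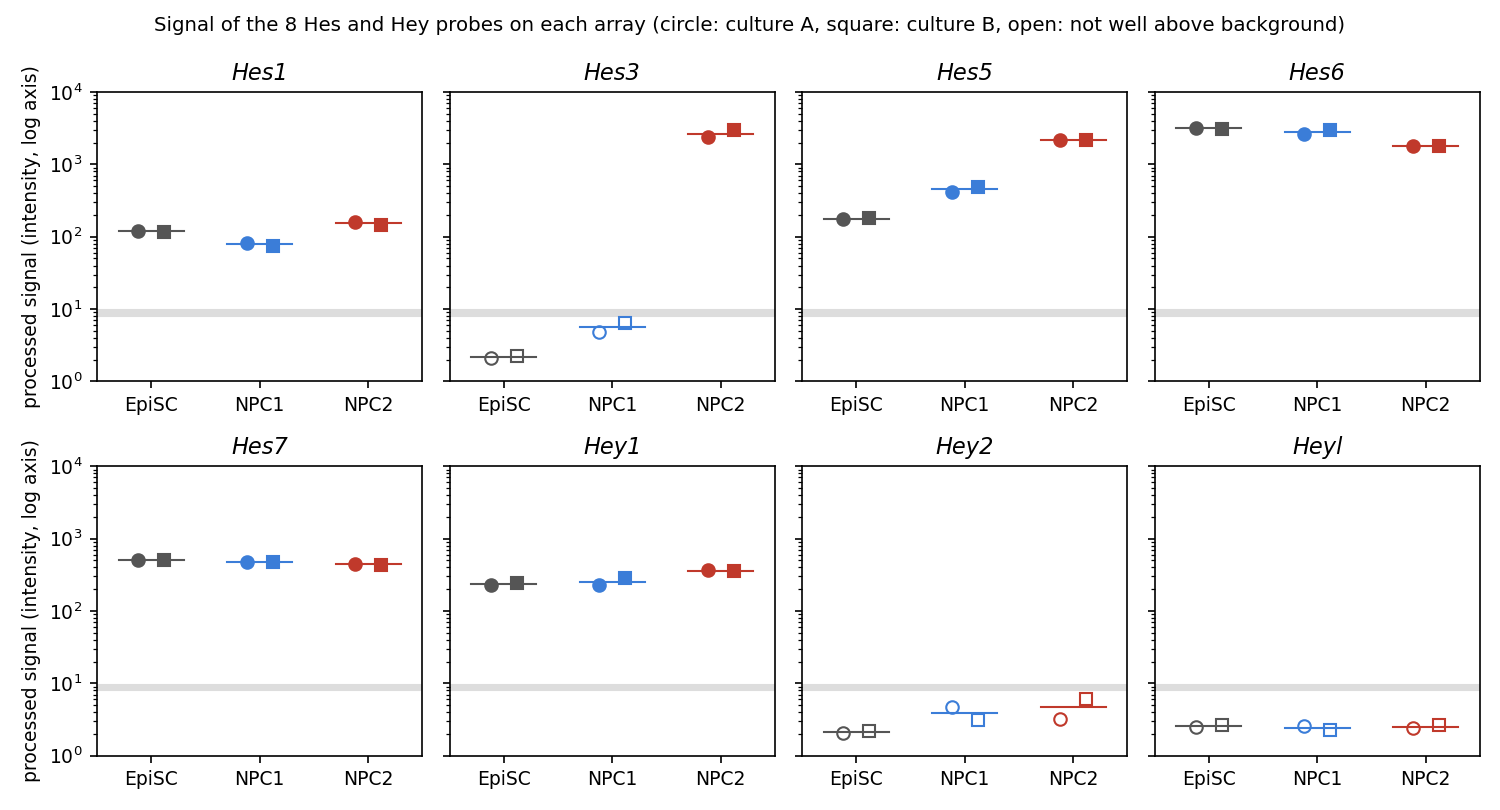
Processed signal (log axis) of each member's probe on the 6 arrays, with circles for culture A, squares for culture B, lines for the mean of 2 arrays, open symbols for spots not well above background and a grey band for the lowest signal so marked on each array. Hes3 is open in EpiSC and NPC1 and lies at 2388 and 2940.0 in NPC2, and Hey2 and Heyl are open on every array.

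Differences were tested on log2 of the signal after scaling each array to its 75th percentile, with limma over 14773 genes, those with a probe flagged above background in both cultures of 1 group or more, and an adjusted p (Benjamini-Hochberg over those genes) under 0.05 counts as passing. Of the 8 members 6 entered that test: Hes1, Hes5, Hes6, Hes7 and Hey1 were well above background on all 6 arrays, and Hes3 entered only through NPC2. In NPC1 against EpiSC 21.3% of all tested genes rose and 29% fell, in NPC2 against EpiSC 28.3% rose and 40.7% fell, and in NPC2 against NPC1 20.8% rose and 26.6% fell. Beside these shares, 2 members passed upward and 1 downward in NPC1 against EpiSC, 4 upward and 2 downward in NPC2 against EpiSC, and 4 upward and 1 downward in NPC2 against NPC1. These counts include Hes3, which had to be bright in NPC2 to be tested, and are given as a description. In NPC1 against EpiSC Hes3 is among the upward calls although it was below background in both groups. That call was lost with normexp background correction, as given below. NPC1 against EpiSC and NPC2 against EpiSC share the EpiSC arrays, and NPC2 against NPC1 shares its arrays with both.

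The direction of small changes depended on how arrays were scaled. Genes that fell made up 57.7% of the calls in NPC1 against EpiSC, 59.0% in NPC2 against EpiSC and 56.1% in NPC2 against NPC1. In the value table that the authors deposited these shares were 37.9%, 38.8% and 41.0%, and with each array scaled to its median 71.0%, 65.6% and 53.2%. The median change of all genes in NPC2 against EpiSC was -0.10 here, 0.13 in the value table and -0.18 with median scaling. Of the members, this touches Hes1, Hes6 and Hes7, as given below.

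Hes3, a repressor that acts with Hes1 and Hes5 in mouse neural progenitors, had the most marked pattern. Its processed signal was 2.10 and 2.27 on the EpiSC arrays and 4.85 and 6.36 on the NPC1 arrays, none of them well above background, and 2388 and 2940.0 on the NPC2 arrays. Both NPC2 arrays stood apart from the other 4, on which the probe was at the level of background. With the dim arrays set at the higher of their own signal and their lowest signal well above background, and the bright group's mean set against that, Hes3 was at least 274-fold higher in NPC2 than in EpiSC (adjusted p = 6.45e-06, limma) and at least 293-fold higher in NPC2 than in NPC1 (adjusted p = 3.16e-05, limma). Hes3 was tested only because it was bright in NPC2, so these p-values are given as a description. They come from the signals as measured, not from the bounds. The bounds are on the scale of the processed signal: with normexp background correction and its offset of 50 the log2 changes were 5.46 and 5.28, below the bounds of 8.10 and 8.20. NPC1 against EpiSC passed the test too (adjusted p = 0.00218, limma), but no fold is given because both groups were below background, and with normexp background correction this call was lost (adjusted p = 0.0767).

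Hes5, a main Notch effector in mouse neural progenitors whose promoter is printed above, rose on both days. Its signal was 176 and 179 in EpiSC, 419 and 492 in NPC1, and 2137 and 2137 in NPC2. The 3 groups did not overlap, and the share of all genes for which that held is not given here. The log2 change was 1.36 ± 0.062 in NPC1 against EpiSC (SE, 2.57-fold, adjusted p = 0.000224, limma) and 3.53 ± 0.062 in NPC2 against EpiSC (11.5-fold, adjusted p = 8.46e-06). Between the days it was 2.16 ± 0.062 in NPC2 against NPC1 (4.47-fold, adjusted p = 6.3e-05). Hes5 ranked 298th from the top of 14597 genes in NPC1 against EpiSC, 115th of 14725 in NPC2 against EpiSC and 155th of 14671 in NPC2 against NPC1, and in NPC2 against EpiSC 1.48% of genes had a larger change in either direction.

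Hes1, the family member that oscillates in many mouse progenitors, was lower on day 1 and higher on day 2. Its signal was 119 and 118 in EpiSC, 82.7 and 75.6 in NPC1, and 162 and 146 in NPC2, with no overlap between the groups and NPC1 the lowest. In NPC1 it fell by 0.57 ± 0.093 on the log2 scale against EpiSC (SE, 1.49-fold, adjusted p = 0.00677, limma). In NPC2 it was 0.88 ± 0.093 above NPC1 (1.85-fold, adjusted p = 0.00163). With normexp background correction these changes were smaller, -0.33 and 0.54, and both still passed. The gap between NPC2 and EpiSC was small, 0.31 ± 0.093 (1.24-fold, adjusted p = 0.0322), and this call was not stable. It was lost with median scaling (adjusted p = 0.0549), without the filter on dim probes (0.0644), without EpiSC culture A (0.0997), without EpiSC culture B (0.111) and without NPC2 culture A (0.137), and over all 16 alternatives the adjusted p ran from 0.0069 to 0.137.

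Hey1, a Notch target that dimerises with HES proteins, was higher on day 2. Its signal was 226 and 241 in EpiSC, 226 and 281 in NPC1, and 364 and 358 in NPC2. The NPC1 and EpiSC values overlapped, whereas both NPC2 values lay above the other 4. The log2 change was 0.57 ± 0.087 in NPC2 against EpiSC (SE, 1.48-fold, adjusted p = 0.00323, limma) and 0.44 ± 0.087 in NPC2 against NPC1 (1.36-fold, adjusted p = 0.0123). That second call was lost without NPC2 culture A (adjusted p = 0.0589) or culture B (0.0561). In NPC1 against EpiSC the change was 0.12, with a 95% interval, not adjusted for the number of genes, from -0.10 to 0.35 (adjusted p = 0.299).

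Hes6, which opposes Hes1 and favours neuronal differentiation in mouse, went the other way. Its signal was 3213 and 3092 in EpiSC, 2594 and 3029 in NPC1, and 1796 and 1814 in NPC2. The NPC2 values were the lowest of all, and on this scale the groups did not overlap, although NPC1 culture B lay close to EpiSC culture B. In the authors' value table NPC1 culture B (6729.2) lay above EpiSC culture B (6497.6). Hes6 fell by 0.87 ± 0.063 on the log2 scale in NPC2 against EpiSC (SE, 1.83-fold, adjusted p = 0.000246, limma) and by 0.71 ± 0.063 in NPC2 against NPC1 (1.63-fold, adjusted p = 0.000984). In NPC1 against EpiSC the change was -0.16, with a 95% interval from -0.32 to 0.003 (adjusted p = 0.0911). This passed with median scaling (-0.26, adjusted p = 0.0324) and without NPC1 culture B (-0.23, adjusted p = 0.0441).

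Hes7, the segmentation clock repressor, changed by little. Its signal was 512 and 501 in EpiSC, 474 and 469.8 in NPC1, and 449 and 434 in NPC2. On this scale the groups did not overlap, and the whole range from the lowest to the highest array was narrow. In the authors' value table NPC1 overlapped with both other groups. The values there were 1087.9 and 1053.6 in EpiSC, 1144.2 and 1043.7 in NPC1, and 1052.9 and 1031 in NPC2. Hes7 fell by 0.26 ± 0.055 on the log2 scale in NPC2 against EpiSC (SE, 1.20-fold, adjusted p = 0.00958, limma). That call was lost in the authors' value table (change -0.04, adjusted p = 0.595), without EpiSC culture A (adjusted p = 0.0552) and without NPC2 culture B (0.0511). In NPC2 against NPC1 the change was -0.17 (95% interval from -0.31 to -0.03, adjusted p = 0.0571) and passed with quantile normalisation (adjusted p = 0.0447), with genes well above background on all arrays only (0.0482) and without NPC1 culture B (0.0449). In NPC1 against EpiSC it was -0.09 (interval from -0.24 to 0.05, adjusted p = 0.21), passed with median scaling (-0.19, adjusted p = 0.0273) and had the opposite sign in the value table (0.03).

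Hey2 and Heyl, repressors of the developing heart and vessels, were not well above background on any of the 6 arrays and entered no test. Hey2 had a signal of 2.03 and 2.18 in EpiSC, 4.71 and 3.07 in NPC1, and 3.24 and 6.14 in NPC2. Heyl had 2.51 and 2.69 in EpiSC, 2.58 and 2.28 in NPC1, and 2.40 and 2.63 in NPC2. At these signals the arrays give only a bound for both genes, and no order of the groups can be read from them.

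The gap between cultures A and B of a group shows the precision of these changes. On the scaled log2 values it was 0.014 in EpiSC, 0.22 in NPC1 and 0.14 in NPC2 for Hes1, and 0.026, 0.14 and 0.014 for Hes5. For Hes6 it was 0.06, 0.13 and 0.03, for Hes7 0.03, 0.10 and 0.03, and for Hey1 0.08, 0.22 and 0.01 in the same order. All 5 members that were well above background throughout thus had their widest gap in NPC1, as did 42.5% of the 14773 genes tested. Over those genes the median gap was 0.06 in EpiSC, 0.09 in NPC1 and 0.07 in NPC2. The widest gap of a detected member was that of Hes3 in NPC2, 0.31, small beside its change.

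**Figure D3:**
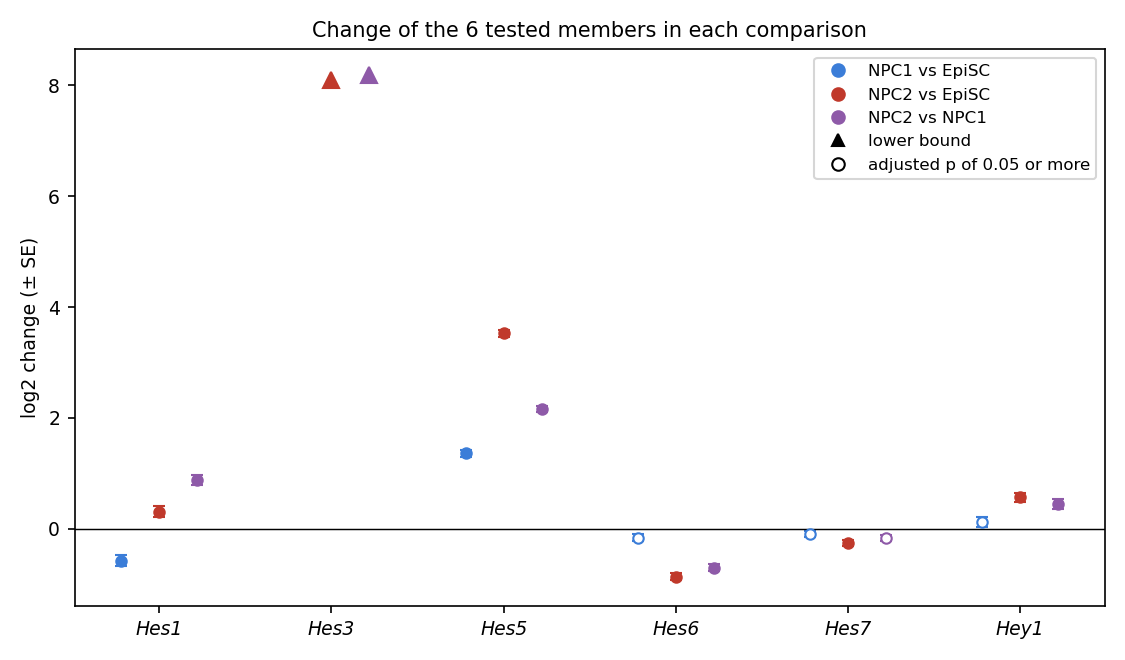
Log2 change with its SE for the 6 tested members in each of the 3 comparisons, with open circles where the adjusted p was 0.05 or more and triangles for lower bounds. Hes3 (bounds of 8.10 and 8.20) and Hes5 (3.53 in NPC2 against EpiSC) lie far above the others. Hes6 and Hes7 lie below 0 in each comparison, and Hes1 does so in NPC1 against EpiSC (-0.57).

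The pace of change differed between the days for part of the family. The change of the second day (NPC2 against NPC1) minus that of the first day (NPC1 against EpiSC) was tested for the 5 members well above background on all arrays, with p-values adjusted over all 14773 genes, of which 29.5% passed. Hes1 fell on the first day and rose on the second, a difference of 1.46 ± 0.16 on the log2 scale (SE, adjusted p = 0.00418, limma), or 0.87 with normexp correction. Hes5 rose on both days and by 0.80 ± 0.11 more on the second (adjusted p = 0.00737). Hes6 had a second step 0.55 ± 0.11 lower than its first (difference -0.55, adjusted p = 0.0222). For Hes6 the call did not hold without EpiSC culture A (adjusted p = 0.0559), EpiSC culture B (0.0706), NPC1 culture B (0.072), NPC2 culture A (0.0647) or NPC2 culture B (0.06), with median scaling (0.0566) or without the filter on dim probes (0.0544). The difference was -0.07 for Hes7 (adjusted p = 0.598) and 0.32 for Hey1 (adjusted p = 0.173), and the Hey1 value passed without NPC1 culture B (0.55, adjusted p = 0.0498).

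**Figure D4:**
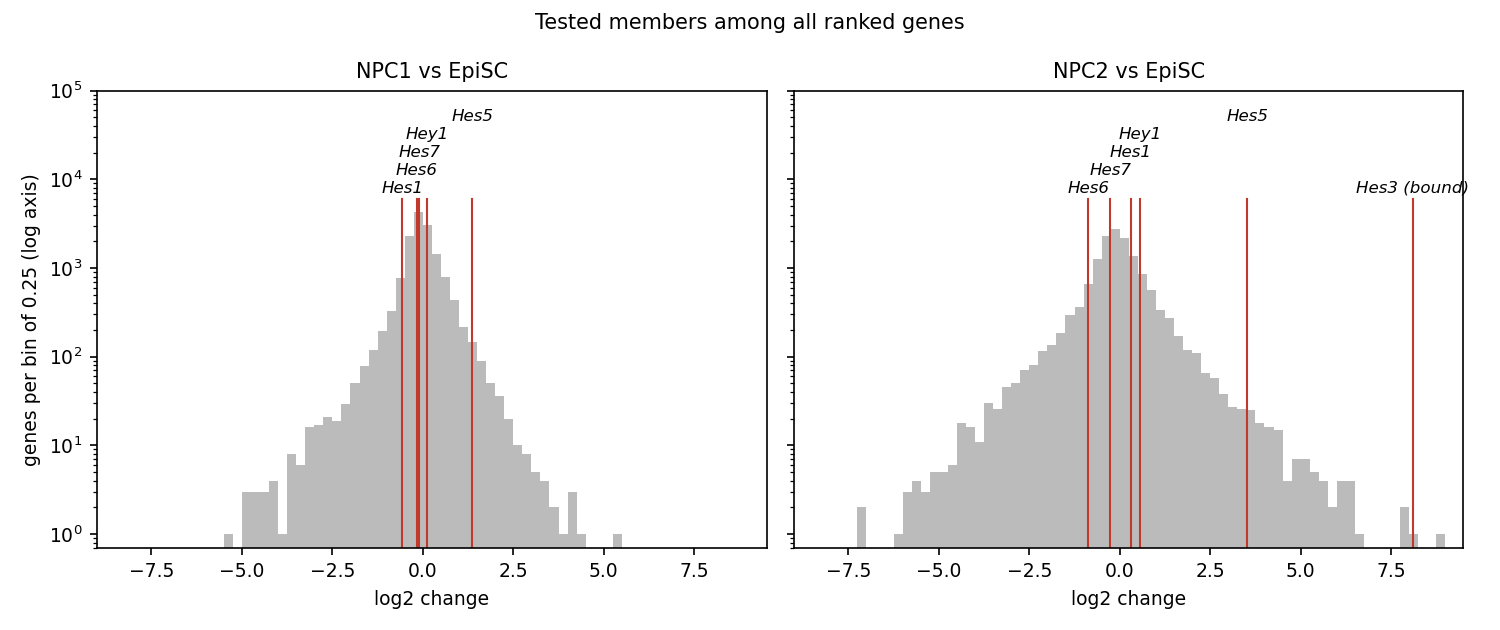
Number of genes (log axis) by log2 change in NPC1 against EpiSC and in NPC2 against EpiSC, with red lines at the members. In NPC2 against EpiSC Hes5 (3.53) and the Hes3 bound (8.10) lie in the upper tail, and Hes6 (-0.87), Hes7 (-0.26), Hes1 (0.31) and Hey1 (0.57) lie in the body of the distribution.

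The genes around the family in the pathway were counted in 8 lists of 59 genes, of which 57 were on the array and 52 were tested. In NPC2 against EpiSC 28 rose and 13 fell, beside 28.3% and 40.7% of all tested genes. Their median log2 change was 0.33, against -0.10 over all genes. In NPC1 against EpiSC 16 rose and 14 fell (all genes 21.3% and 29%), with a median of 0.05 against -0.05. In NPC2 against NPC1 25 rose and 8 fell (all genes 20.8% and 26.6%), with a median of 0.28 against -0.04. The counts of single lists and of markers below stand beside the same shares of all genes. Apart from Rfng, the genes named below are among those with the largest changes of each list. Values are log2 changes ± SE in NPC2 against EpiSC.

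Of the 4 tested Notch ligands 3 rose and 1 fell. Dll1, which activates Notch on neighbouring cells, was at least 26.6-fold higher in NPC2 than in EpiSC. Its signals were 260.4 and 254 in NPC2, against 7.69 and 7.44 in EpiSC, neither of those well above background. It entered the test only through NPC1 and NPC2, so its adjusted p of 7.67e-06 (limma) is given as a description. That p-value comes from the signals as measured, not from the bound. With normexp correction the log2 change of Dll1 was 2.13, below the bound, and the call held. Jag1 rose by 0.89 ± 0.054 and Jag2 fell by 1.07 ± 0.070. Of the 4 receptors 2 rose and 1 fell, with Notch2 up by 1.22 ± 0.050 (adjusted p = 4.31e-05) and Notch4 down (change -0.63 ± 0.055, adjusted p = 0.000437, and -0.41 in the authors' value table). Of 15 genes that modify, cleave or sort Notch and its ligands 7 rose and 3 fell, and of the Fringe glycosyltransferase genes Lfng and Mfng rose by 2.08 ± 0.086 and 1.81 ± 0.052 while Rfng fell by 0.56 ± 0.065 (adjusted p = 0.00122, limma). With normexp correction the Lfng change was 1.35. Of 9 genes of the nuclear complex and its feedback 3 rose and 3 fell, with the Mastermind coactivator gene Maml3 up by 1.41 ± 0.052 and Dtx1, a Notch-binding ubiquitin ligase gene, down (change -0.96 ± 0.045). In the authors' value table these last 2 lists had 8 up and 1 down, and 6 up and 1 down. The receptors had 3 up and 1 down there, and 1 up and 1 down with median scaling. Of the genes that modify, cleave or sort Notch and its ligands, 7 rose and 5 fell with median scaling.

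The proteins that HES and HEY factors work with were measured too. Of 5 TLE corepressor genes 3 rose and 2 fell, with Tle3 up by 0.83 ± 0.043 and Tle6 down (change -0.78 ± 0.11). Of 7 helix-loop-helix partners 6 rose and none fell, led by Id3 and Id1, whose products titrate E proteins, at 4.19 ± 0.096 (18.2-fold, adjusted p = 1.22e-05, limma) and 3.01 ± 0.070 (8.08-fold, adjusted p = 1.23e-05). Of 3 tested relatives of the family 1 rose and 2 fell, and Bhlhe40, a clock-linked repressor gene, fell by 3.13 ± 0.095, or by 2.44 with normexp correction. Of 8 proneural genes, which HES proteins repress in the embryonic mouse brain, 5 were tested, 3 rose and 1 fell. Neurog2, which drives neuronal commitment, had signals of 38.5 and 31.0 in NPC2, against 2.06 and 2.19 in EpiSC, and was well above background in NPC2 alone, the group through which it entered the test. It was at least 3.58-fold higher in NPC2 than in EpiSC on the scale of the processed signal, and its log2 change was 0.60 with normexp correction. Of the 28 listed genes that rose in NPC2 against EpiSC, 5 were not well above background on either EpiSC array (Bhlhe41, Dll1, Tle2, Neurog2 and Neurog3), so that they could be tested only because they were brighter later, and the counts that hold them are a description.

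**Figure D5:**
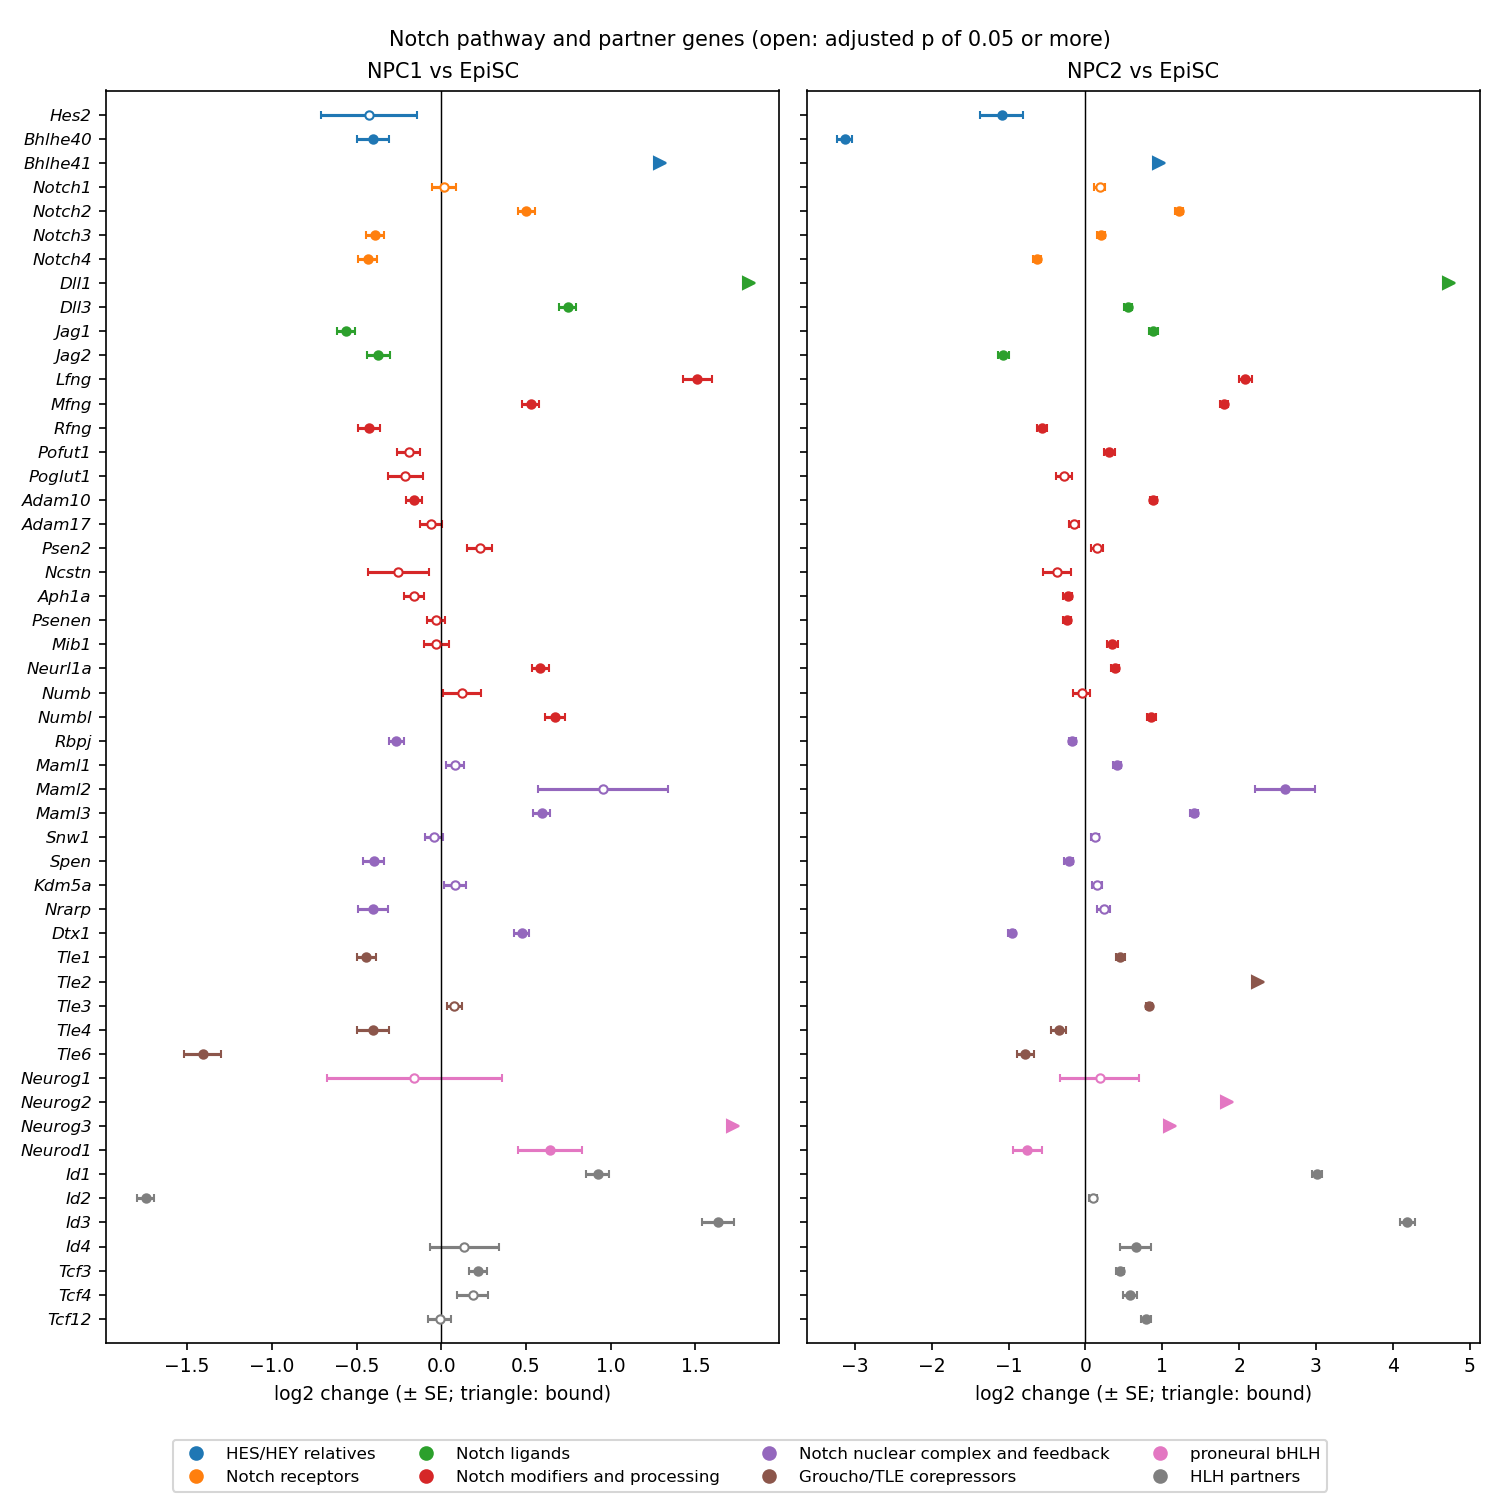
Log2 change with its SE for tested genes of the 8 lists in NPC1 against EpiSC and in NPC2 against EpiSC, coloured by list, with open circles where the adjusted p was 0.05 or more and triangles for lower bounds, genes below background in both groups being left out of that panel. In NPC2 against EpiSC the Dll1 bound, Id3 (4.19) and Id1 (3.01) lie farthest to the right and Bhlhe40 (-3.13) farthest to the left.

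Markers of cell types moved in the same cultures, and their part in the changes of the Hes and Hey genes was not tested. In bulk RNA fewer cells of a type and less RNA per cell cannot be told apart. All 6 epiblast markers were well above background in each group. Their summed signal was 27857 to 30249 in NPC2, against 61989 to 65640 in EpiSC. Of the 6, 4 fell, among them Pou5f1 by 2.66 ± 0.073. The other 2 rose, Nanog by 0.82 ± 0.053 and Otx2 by 0.77 ± 0.059. Most of the NPC2 sum was Otx2, with 22926 and 20880. Of the neural plate markers all 6 were higher in NPC2, with a summed signal of 20997 to 21504 against 7803 to 8320 in EpiSC, and Sox1, a marker of neural commitment, rose by 5.72 ± 0.059, or by 4.38 with normexp correction and 3.77 with the mean of its 2 probes. A sum weighs the brightest probe most. Of the neuronal markers 3 of 6 rose and 1 fell, with sums of 9029 to 9164 in NPC2 and 7048 to 7144 in EpiSC. In NPC1 the sums were 38429.7 to 41576 for the epiblast, 8113 to 9014 for the neural plate and 11722 to 11966 for the neuronal markers.

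Beside Hes7, the presomitic mesoderm markers Msgn1 and Meox1 were not well above background on any array, 2 of the 4 tested markers of that list rose in NPC2 and 1 fell, and the summed signal was 261 to 271 in NPC2 and 179 to 183 in EpiSC. Beside the Hey genes, the 3 tested markers of endothelium and heart, Pecam1, Kdr and Nkx2-5, had adjusted p of 0.642, 0.762 and 0.273 in NPC2 against EpiSC by limma, Myl7 was not well above background on any array, Cdh5 was so on NPC2 culture A alone, and the sums were 3890 to 4551 in NPC2 and 4039 to 4115 in EpiSC. Nearly all of that sum was Kdr, with 4418 and 3823 in NPC2 and 4048.5 and 3981 in EpiSC. Of the fibroblast and feeder markers 4 of 6 rose and none fell, or 4 rose and 1 fell with normexp correction. Their sums were 4820 to 5123 in NPC2 and 2705 to 2857 in EpiSC. Pdgfra was at least 11.5-fold higher in NPC2 on the scale of the processed signal (log2 change 1.34 with normexp correction). Twist1 changed by -1.56 ± 0.62 without passing (adjusted p = 0.0764, limma). Of the 17 markers that rose, 3 (Pax6, Pdgfra and Postn) were likewise not well above background on either EpiSC array. In NPC1 the sums were 202 to 204 for presomitic mesoderm, 4131 to 4156 for endothelium and heart and 3693 to 3808 for fibroblasts and feeders. Of that last list 1 gene rose in NPC1 against EpiSC and 1 fell. The gene that rose was Thy1, with 2352 and 2584 in NPC1, against 1129 and 1199 in EpiSC.

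The genes whose pattern over the 6 arrays was closest to a member were taken by Euclidean distance between log2 values centred on each gene's mean. For Hes5 these were Mfap4 (distance 0.115), Plppr3 (0.199) and Foxd4 (0.303). Mfap4, an extracellular matrix gene, had signals of 78.2 and 84.1 in EpiSC, 188 and 206 in NPC1, and 954 and 957 in NPC2. It was picked for its nearness to Hes5 on these arrays, so the shared order of the groups follows from that choice. For Hes3 the rule gave Irx1, Dmbx1 and Dbx1 (each a homeobox gene), but Hes3 was not well above background on 4 arrays, and no distance or order is read from such signals. For Hes1 they were Gsta3 (0.168), Ehhadh (0.182) and Cd14 (0.201), for Hes6 D5Ertd579e (0.0542), Gltp (0.0985) and Usp18 (0.109), for Hes7 2610028H24Rik (0.0363), Lst1 (0.0379) and Trim11 (0.0476), and for Hey1 Fam117a (0.0723), 2810459M11Rik (0.0791) and Rab43 (0.103). For genes that change little, a short distance says only that both are nearly flat.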

How the data were processed

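Per the file headers, spot values come from Agilent's Feature Extraction software, version 10.10.1.1 (protocol GE1_1010_Sep10, array design 028005, grid build mm9), which gave the deposited intensity of each spot, background-subtracted and not scaled between arrays, with flags for signal well above background. A second table deposited by the authors equals this intensity times a constant for each array (2.10 to 2.41), linear and not centred. Its column medians were 52.5 and 51.3 in EpiSC A and B, 61.8 and 59.6 in NPC1, and 65.3 and 64.3 in NPC2, and the basis of the constant is unknown here. Between 58.2% and 61.1% of 59305 non-control spots per array were well above background and 0 were saturated. The number of arrays limits precision.

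Controls and spots marked as outliers were dropped (35 probes lost) and spots of a probe averaged, giving 55646 probes. Of 28372 with a RefSeq accession, 26744 were named through RefSeq's GRCm38.p6 tables, which also gave the promoter windows. Log2 signals minus each array's 75th percentile were fitted with limma 3.58.1 (R 4.3.3) over all 6 arrays, 1 probe per gene (the brightest of those passing the filter), two-sided, threshold 0.05, with 3 residual and 1.88 prior degrees of freedom; the median SE was 0.0678. For a bound, each dim array counts with its own signal or its lowest signal well above background, whichever is higher. The code was tested on simulated data. Alternatives were normexp (offset 50), run on median rather than mean spot signals because the columns used hold the median, median and quantile scaling, the value table, other probe filters and summaries, a replicate block, 2-group fits and leaving out each array. Named genes were the 8 members, for each list up to 4 genes with the largest change in NPC2 against EpiSC, and the 3 genes nearest each tested member. Rfng, Id2, Nrarp and Neurod4 were named outside this rule. Members and lists were chosen with earlier results of these data known. The markers given singly were picked from their lists after their values were seen. The values of 1 listed gene are not reported here.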

Additional observations from a re-analysis of the deposited data

Results flagged for a closer look

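For 3 members the changes of the 2 days differed by a direct test, the second step (NPC2 against NPC1) minus the first (NPC1 against EpiSC). Hes1 fell by 0.57 on the log2 scale on the first day and rose by 0.88 on the second, a difference of 1.46 ± 0.16 (adjusted p = 0.00418, limma), seen in the signals of all 6 arrays, which put both NPC1 cultures lowest. Hes5 rose by 1.36 and then by 2.16, a difference of 0.80 ± 0.11 (adjusted p = 0.00737). Hes6 had steps of -0.16 and -0.71, a difference of -0.55 ± 0.11 (adjusted p = 0.0222), a call that was lost when any of 5 of the 6 arrays was left out (adjusted p of 0.0559 to 0.072). Of all genes tested 29.5% passed this test in either direction. The fit of this difference under the alternatives was chosen after seeing the data.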

How the results depend on the processing

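No member's called change reversed under any alternative. Of the members' changes 268 stayed on their side of the threshold over the alternatives, 11 lost the call and 6 gained it. Some alternatives repeat each other, so these counts are not independent checks. Leaving out an array of the group outside a comparison gave the same fit as using only the 2 groups compared. Each member had 1 probe, so the probe filters and summaries left its log2 change as it was. Of the differences between the days 67 stayed on their side, 7 lost the call and 1 gained it. A change that did not pass could switch sign, as that of Hes7 in NPC1 against EpiSC did in the value table (0.03). For the named pathway genes and Pou5f1, Sox1 and Pdgfra in NPC2 against EpiSC, 478 changes stayed on their side, 22 lost the call and 2 gained it. The lost calls were of Notch3, Id4, Neurod1, Tle1, Hes2 and Neurog3. With median scaling 5 members passed in NPC1 against EpiSC in place of 3. Normexp correction gave smaller values: Hes3 was 5.46 in NPC2 against EpiSC and 5.28 in NPC2 against NPC1, and Hes1 -0.33 in NPC1 against EpiSC. With 1 row per probe 11183, 18285 and 10679 rows passed (NPC1 over EpiSC, NPC2 over EpiSC, then NPC2 over NPC1), where 7434, 10196 and 7013 genes had passed; more rows were tested. Leaving out 1 array gave 4880 to 6720, 8563 to 10275 and 5023 to 6118 genes, with 4880 without EpiSC culture B. Over 14773 genes the A minus B differences of 2 groups correlated at 0.008, 0.006 and -0.045. Such values do not show whether cultures with the same letter were handled together. With the replicate block 6867, 9873 and 6477 genes passed, and no member's call changed. Hey2 and Heyl, below background on every array, give no readable change without the filter. With 2 arrays a group, each fit that leaves 1 array out assumes that the lone array varies like the other groups.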

Other observations

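A few listed genes were bright on 1 array of a pair. Neurod4, a proneural gene, had a processed signal of 27.9 on NPC2 culture A and 2.00 on NPC2 culture B, against 1.88 and 2.03 in EpiSC. Cdh5, an endothelial cadherin gene, had 67.9 on NPC2 culture A and 2.80 on culture B, against 2.55 and 2.73 in EpiSC. Each was well above background on NPC2 culture A alone and so entered no test.

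Id2, which like Id1 and Id3 titrates E proteins, was, like Hes1, lowest in NPC1. Its signal was 1579 and 1634 in EpiSC, 469.9 and 483 in NPC1, and 1850.3 and 1755 in NPC2. It fell by 1.75 ± 0.050 on the log2 scale in NPC1 against EpiSC (adjusted p = 9.48e-05, limma) and rose by 1.85 ± 0.050 in NPC2 against NPC1 (adjusted p = 6.02e-05), and in NPC2 against EpiSC it changed by 0.10 (adjusted p = 0.131). Tle1 and Nrarp, a Notch feedback gene, likewise fell on the first day, by 0.44 and 0.40, and rose on the second, by 0.90 and 0.64. In NPC2 against EpiSC Tle1 changed by 0.45, and this call was lost with the mean of its probes (0.12, adjusted p = 0.0565, limma). These genes were picked after their values were seen.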
